A study of Mus musculus with 29 samples.

Results

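The Irf8 locus is described here as the Irf8 gene and the 100 kb on each side of it. Irf8 (ENSMUSG00000041515.10) lies on the plus strand of mouse chromosome 8, at chr8:120736358-120756694 in GRCm38, so the window runs from 120636358 to 120856694. Of the 1008691 distinct regions in the 25 deposited peak lists, 221 overlapped this window. They were counted once per start and end, and every position below is a distance from the annotated transcription start, negative upstream and positive downstream. Besides Irf8 the window holds the protein-coding genes Emc8 and Cox4i1 and part of 1190005I06Rik, together with several short or poorly characterised gene models.

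The lists come from CUT&RUN, in which an antibody directs a nuclease to a chromatin protein and the released DNA is sequenced. Female IRF8-EGFP mice, which carry IRF8 fused to a green fluorescent protein, gave the sorted cells for IRF8, and the antibody was raised against GFP. The groups were microglia, the resident macrophages of the brain, at postnatal day 9 (P9, 4 libraries) and 14 (P14, 3 libraries) and in adults of 3 months (3 libraries), and peritoneal macrophages (3 libraries). Microglia of adult WT and IRF8KO females were profiled for PU.1, H3K27ac and H3K4me1, with 2 libraries per target and genotype. The labels give neither the structure of the fusion allele nor the part of the gene that IRF8KO mice lack, so the lists were not used to check the genotype. Each group is sorted bulk material, in which binding in fewer cells and weaker binding in all cells cannot be told apart. The labels do not say that libraries of a group came from separate animals, so the spread between them may be technical.

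IRF8 is a transcription factor of the interferon regulatory factor family that monocytes, dendritic cells and microglia need for their development and identity. It binds DNA weakly alone and more strongly with partners, among them the ETS factor PU.1, with which it occupies composite ETS-IRF sites. The Irf8 gene is controlled by a series of distant enhancers, known from work on blood cells: a PU.1-bound element well upstream of the gene, and elements downstream that serve monocyte and dendritic cell lineages, at one of which IRF8 takes part in its own activation. H3K4me1 marks enhancers in general, and H3K27ac marks active enhancers and promoters.

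The sequences shown are the reference promoter of Irf8, because the transcription start is the zero point of every distance, and 5 of the elements on which the results turn. The promoter is the 250 bases before the start in RefSeq's table, and each element is given as the 300 bases around the median of its listed summits, on the plus strand of GRCm38.p6. Letters are in lower case, and capitals mark a match to the PU.1 motif GAGGAAGT.
Irf8 promoter, chr8:120736108-120736357: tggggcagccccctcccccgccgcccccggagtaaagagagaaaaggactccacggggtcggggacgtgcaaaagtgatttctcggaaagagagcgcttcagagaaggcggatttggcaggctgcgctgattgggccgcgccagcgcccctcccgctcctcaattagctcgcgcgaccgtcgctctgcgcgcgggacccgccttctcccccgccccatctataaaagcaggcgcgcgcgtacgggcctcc
Element at -50.27 kb, chr8:120685940-120686239: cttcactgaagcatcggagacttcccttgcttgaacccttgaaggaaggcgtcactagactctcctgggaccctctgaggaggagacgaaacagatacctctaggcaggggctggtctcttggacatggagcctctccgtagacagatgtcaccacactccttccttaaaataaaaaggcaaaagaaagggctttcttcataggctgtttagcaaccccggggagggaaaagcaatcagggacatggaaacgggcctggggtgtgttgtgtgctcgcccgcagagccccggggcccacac
Element at -16.38 kb, chr8:120719826-120720125: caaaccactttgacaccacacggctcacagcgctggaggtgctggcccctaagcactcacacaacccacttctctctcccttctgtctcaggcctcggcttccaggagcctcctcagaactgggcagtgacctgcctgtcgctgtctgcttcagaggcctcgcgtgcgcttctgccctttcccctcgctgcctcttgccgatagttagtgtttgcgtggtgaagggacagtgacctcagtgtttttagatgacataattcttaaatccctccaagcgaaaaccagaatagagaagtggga
Element at 9.16 kb, chr8:120745371-120745670: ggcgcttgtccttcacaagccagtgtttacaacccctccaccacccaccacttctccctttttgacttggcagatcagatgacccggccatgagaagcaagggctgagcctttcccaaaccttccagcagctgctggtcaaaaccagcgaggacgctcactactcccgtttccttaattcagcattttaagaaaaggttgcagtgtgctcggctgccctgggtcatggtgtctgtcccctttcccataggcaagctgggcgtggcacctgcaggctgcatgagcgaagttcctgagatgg
Element at 31.33 kb, chr8:120767543-120767842: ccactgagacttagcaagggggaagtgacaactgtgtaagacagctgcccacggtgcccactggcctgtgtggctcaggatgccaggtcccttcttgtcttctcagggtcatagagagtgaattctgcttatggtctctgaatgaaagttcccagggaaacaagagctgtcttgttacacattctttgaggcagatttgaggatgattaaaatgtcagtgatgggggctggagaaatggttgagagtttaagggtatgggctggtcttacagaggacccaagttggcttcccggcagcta
Element at 56.55 kb, chr8:120792758-120793057: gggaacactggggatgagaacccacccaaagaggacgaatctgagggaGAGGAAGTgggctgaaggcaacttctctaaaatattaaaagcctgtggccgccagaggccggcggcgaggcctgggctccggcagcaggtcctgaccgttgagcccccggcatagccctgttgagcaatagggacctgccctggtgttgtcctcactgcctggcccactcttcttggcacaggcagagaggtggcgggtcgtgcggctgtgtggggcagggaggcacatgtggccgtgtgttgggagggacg

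Libraries differed in ways that touch every count at the locus. The P9 lists held 1168 to 2068 distinct peaks from 13.4 to 20.9 M (mega) fragments, whereas P14 lists held 7931 to 19243, adult lists 17048 to 29667 and peritoneal macrophage lists 9788 to 23163. Adult replicate 2 had 24.7 M fragments against 7.51 and 7.25 M in the other adult libraries. Each stage and the macrophages had an IgG control of their own, so stage or tissue and control cannot be told apart. Replicate 2 of PU.1 was called in both genotypes with another control and at a looser q-value, 0.05 in place of 0.01. The KO H3K27ac replicate 2 was the shallowest histone library, with 8.57 M fragments. As a check of the labelled cells, all 7 microglial marker genes had WT H3K27ac within 1 kb of their start in at least 1 library, against 0 of 4 neuronal and 0 of 3 lymphocyte genes. In the KO H3K27ac libraries, it was 4 of 7 microglial, 0 of 4 neuronal and 1 of 3 lymphocyte genes (Cd79a). Of the 7 microglial genes, 2 had it in both KO libraries and 6 in both WT libraries. In WT, 1 of 4 astrocyte genes, 2 of 4 oligodendrocyte genes (Mbp and Mog) and 1 of 6 peritoneal macrophage genes also had it. The same lists gave 1 of 4, 1 of 4 and 1 of 6 in KO. The part of such cells in the results was not tested. IRF8 peaks separated the cell types only in part. All 6 peritoneal macrophage marker genes had a macrophage IRF8 peak within 10 kb in at least 1 library, but so did 6 of 7 microglial, 3 of 4 astrocyte and 2 of 4 oligodendrocyte genes, and 3 of the 6 had one in adult microglia. In all 3 adult libraries, 7 of 7 microglial genes had one, against 2 of 6 peritoneal macrophage, 2 of 4 astrocyte, 2 of 4 oligodendrocyte and 1 of 4 neuronal genes. In all 4 P9 libraries, 4 of 7 microglial and 0 of 6 peritoneal macrophage genes had one.

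IRF8 peaks were listed at the Irf8 locus in P14 and adult microglia and in peritoneal macrophages, and in none of the P9 libraries. The P9 lists held 0, 0, 0 and 0 peaks in the window. The P14 lists held 3, 10 and 2, the adult lists 13, 16 and 6, and the peritoneal macrophage lists 5, 3 and 2. All P14 and adult values thus stood above all P9 values, P14 and adult values overlapped, and the lowest adult library stood above the highest macrophage library.

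**Figure D1:**
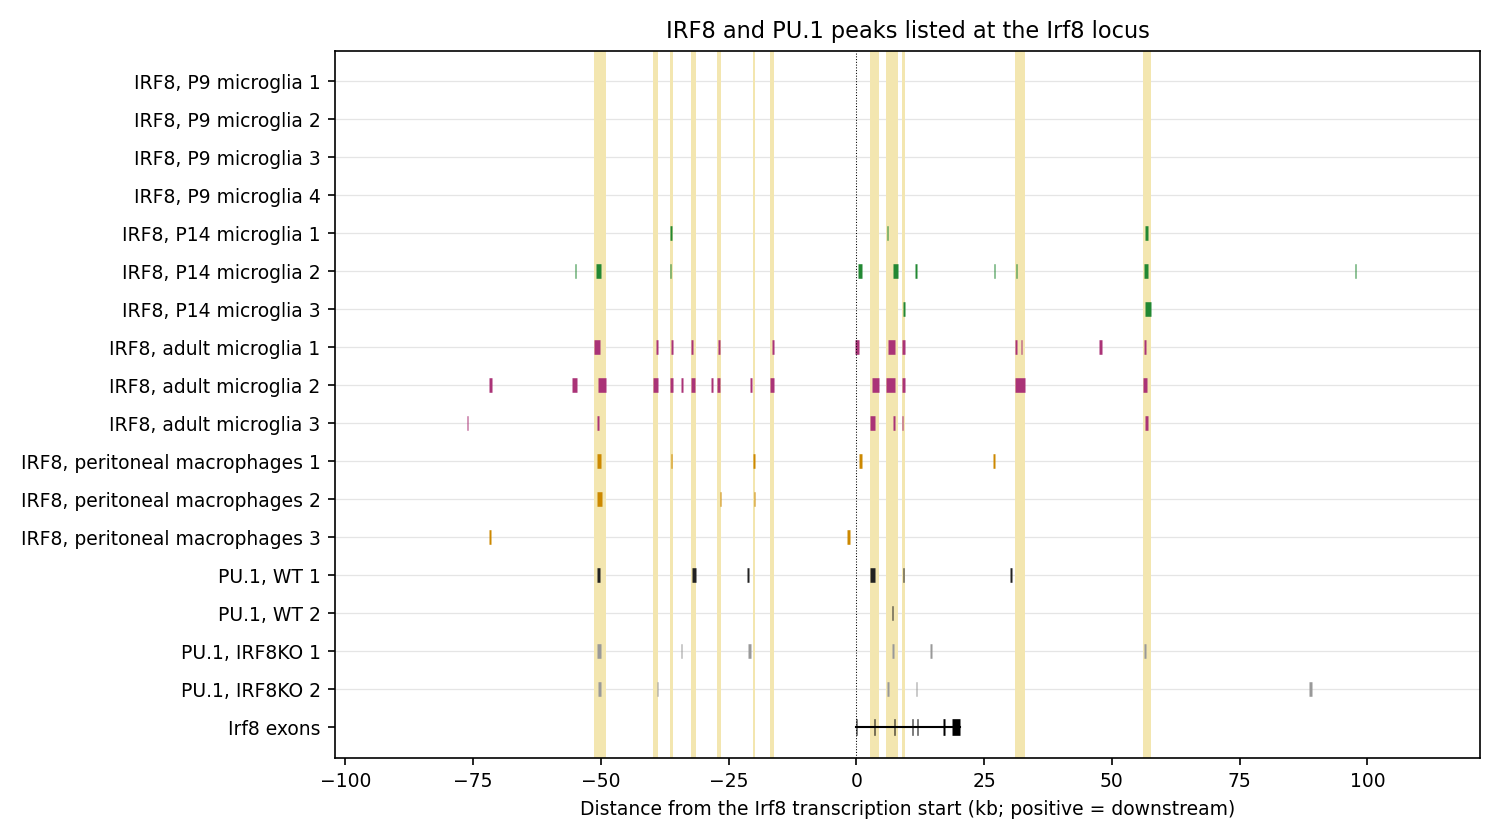
Peaks of IRF8 and PU.1 listed at the Irf8 locus, 1 row per library, against distance from the Irf8 transcription start in kb; bars are listed peaks, shaded columns are the 12 elements found in at least 2 libraries of a group, and the lowest row shows the gene's exons. The 4 P9 rows are empty, and the columns at -50.27 and 56.55 kb hold peaks in all 3 adult rows.

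The mean was 5 ± 4.36 peaks at P14 (SD, n = 3) and 11.7 ± 5.13 in adults (n = 3) against 0 at P9 (n = 4). For P14 against P9 and for adult against P9, the exact permutation test of the difference of means gave a two-sided p of 0.0286, the smallest that 4 against 3 libraries allow, and 0.0571 after Benjamini-Hochberg adjustment over 4 comparisons. Neither comparison therefore passed 0.05 after adjustment. Of 21938 windows of protein-coding genes built the same way, 65.0% held no P9 peak. A count higher in every P14 than in every P9 library was found in 36.6% of them, and higher in every adult than in every P9 library in 65.6%, so the order seen at Irf8 was common among genes.

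The rank of the locus within each list bears on the empty P9 rows. When the peaks of a list were ordered by the authors' p-value, the strongest peak at the Irf8 locus ranked 4238, 1974 and 2277 in the P14 lists and 3667, 5581 and 2031 in the adult lists. All 6 ranks lie beyond the shortest P9 list, 1168 peaks, and all but 1974 and 2031 lie beyond the longest, 2068 peaks. Cut to 1168 peaks, the P14 and adult lists also held 0 peaks at the locus. Most later lists thus reach Irf8 at a depth that the P9 lists do not hold, and a difference in binding below the depth of the P9 lists was not detectable.

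**Figure D2:**
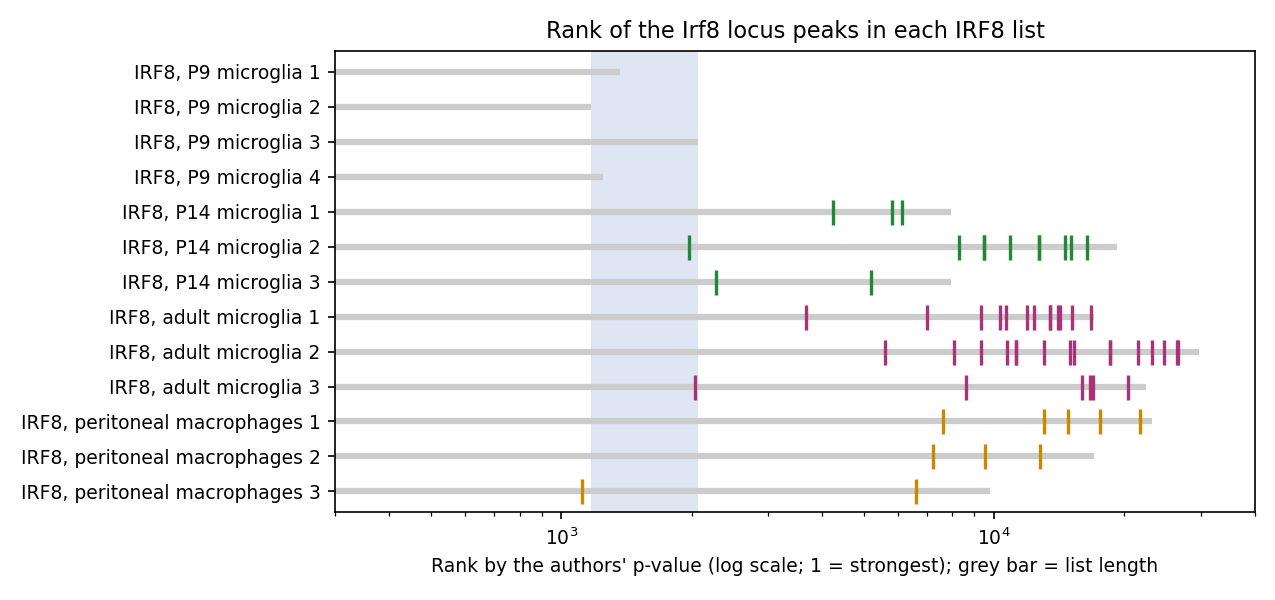
Rank by the authors' p-value of every IRF8 peak at the Irf8 locus (ticks) within its list (grey bar, as long as the list), on a log axis, 1 row per library; the shaded band spans the lengths of the P9 lists. The strongest tick of each P14 and adult list lies beyond the shortest P9 list of 1168 peaks, and 1 macrophage library has a tick before it, at rank 1117.

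Between P14 and adults the counts did not separate. The difference of 6.67 peaks had p = 0.20 (exact permutation test, two-sided, adjusted 0.20, smallest possible 0.10). Set against list length, the locus held 3.77, 5.20 and 2.52 peaks per 10000 listed peaks at P14 and 7.63, 5.39 and 2.68 in adults. The difference of 1.40 per 10000 had p = 0.40 in the same exact test. In lists cut to 7931 peaks each, the P14 libraries held 6 peaks together and the adult libraries 4, which turned the direction. A count higher in every adult than in every P14 library was found at 11.7% of gene windows, and Irf8 was not among them.

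Adult microglia had more IRF8 peaks at the locus than peritoneal macrophages in every pairing of libraries. The difference of 8.33 peaks had p = 0.10, the smallest that 3 against 3 libraries allow (exact permutation test, two-sided, adjusted 0.133), so the design could not reach 0.05. The separation was lost within 50 kb (difference 7.33, p = 0.20), at a −log10 p of at least 10 (3.67, p = 0.30) and at equal list lengths (1.00, p = 0.30), by the same exact test. Irf8 was among the 12.7% of gene windows with this order. Per 10000 listed peaks the macrophage libraries held 2.16, 1.77 and 2.04, below each adult library, an order found at 11.5% of gene windows, and below each P14 library, an order found at 12.8%. The adult minus macrophage difference was 10.5 peaks within batch 1 and 4.00 within batch 2, where each group had 1 library. In lists cut to 9788 peaks the adult libraries held 8 peaks together and the macrophage libraries 5.

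**Figure D3:**
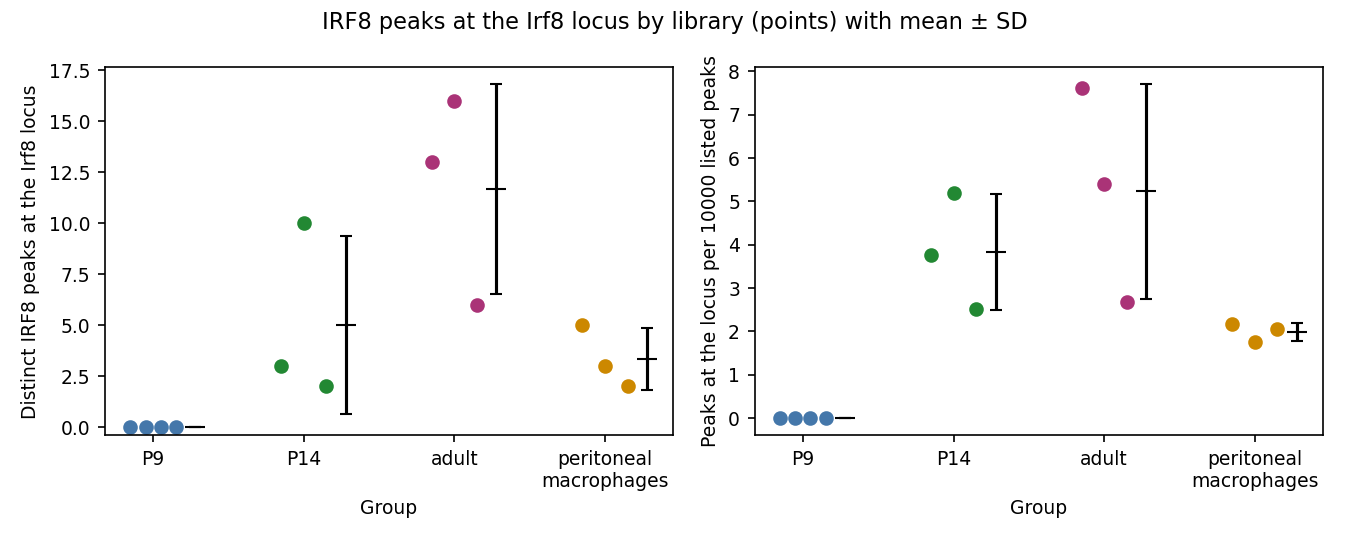
Distinct IRF8 peaks at the Irf8 locus (left) and the same per 10000 listed peaks (right) for each library (points), by group, with the mean and SD at the side. Adult libraries span 6 to 16 peaks, macrophage libraries 2 to 5, and all P9 libraries are at 0.

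Merging overlapping IRF8 and PU.1 peaks gave 27 elements across the window. IRF8 was listed at 24 and PU.1 at 13, and 10 had both. Of the IRF8 elements 14 lay upstream of the gene, 5 within it and 5 downstream. Of the 27 elements, 8 were found in 1 library and 12 were found in at least 2 libraries of a group. Adult libraries covered 19 elements, of which 4 were in all 3 adult lists. Across the genome 20.7% of the elements in any adult list were in all 3. Of the 11 elements in a P14 list, 8 were also in an adult list, and of the 8 in a macrophage list, 5 were. The corresponding shares of all elements were 72.0% and 41.1%. The fold enrichments given below are the authors' values over their IgG control, and describe a peak within its own list.

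The upstream element at -50.27 kb was the most widely shared, with peaks in 9 libraries. It lies where work on blood cells places the PU.1-bound upstream enhancer of Irf8, and overlaps an exon of the gene model Gm33142. IRF8 was listed there in P14 replicate 2, with a fold enrichment of 3.27, in the 3 adult libraries, with 5.45, 5.38 and 4.10, and in macrophage replicates 1 and 2, with 6.10 and 4.59. PU.1 was listed there in WT replicate 1, with 5.55, and in both KO libraries, with 6.34 and 4.59. All 4 H3K27ac and all 4 H3K4me1 libraries covered it. It was the strongest locus peak of macrophage replicate 1, ahead of 68.0% of that list. In macrophage replicate 2 it stood ahead of 45.6% of the list and in the adult lists ahead of 27.8%, 50.6% and 15.9%, so the macrophage and adult values overlapped.

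By overlap of peaks, the downstream element at 56.55 kb was the only one found in all 3 P14 and all 3 adult lists. The peaks of all 6 lists share the bases from 120792940 to 120793075, whereas their summits differ. The summits of P14 replicates 1 and 3 lay at 57.06 and 56.99 kb. Those of P14 replicate 2, the adult libraries and KO PU.1 lay between 56.33 and 56.65 kb. With summits grouped within 300 bp, 0 groups were in all 6 lists, and the group at 56.33 to 56.65 kb held 1 P14 and 3 adult libraries. A downstream enhancer near this distance is known from monocytes and their progenitors. Its fold enrichment was 4.03, 8.23 and 4.09 at P14 and 5.59, 5.82 and 4.04 in adults. It was the strongest peak of the locus in P14 replicate 2, ahead of 89.8% of that list. No macrophage list and no P9 list held it. Genome-wide, 4.22% of 81358 elements were in all P14 and adult lists, and of those, 17.4% were in no macrophage list, 43.5% in no P9 list and 10.4% in neither a macrophage nor a P9 list. PU.1 was listed at this element in KO replicate 1 only, where it was the strongest locus peak with a fold enrichment of 7.35. H3K27ac covered it in both WT libraries and 1 of 2 KO libraries. The printed sequence holds the PU.1 motif GAGGAAGT at 56.45 kb, 72 bp from the nearest summit, that of adult replicate 1.

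Within the gene, 3 elements were listed in at least 2 adult libraries, and each overlapped an exon of the main transcript. The element at 9.16 kb, over exon 4, was listed in all 3 adult libraries, with fold enrichments of 10.4, 5.87 and 5.86, and in P14 replicate 3 with 5.85. It held the strongest locus peak of adult replicate 1 and of P14 replicate 3. PU.1 was listed there in WT replicate 1 only, with a fold of 4.54. The element at 6.81 kb, over exon 3, was in all 3 adult lists, with folds of 4.07, 4.96 and 4.48, in P14 replicates 1 and 2, and in 3 PU.1 lists, 1 of WT and 2 of KO. These peaks are joined through the long adult peaks: the P14 peaks, at 5.99 to 6.27 and 7.18 to 8.13 kb, share no base, nor do the KO PU.1 peaks, at 5.90 to 6.41 and 7.03 to 7.39 kb. No macrophage library listed either element.

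The element at 3.42 kb, over exon 2, was listed in adult replicates 2 and 3, with folds of 3.91 and 8.96, and in the WT PU.1 replicate 1 with 6.56. In adult replicate 3 it was the strongest locus peak, and that peak begins at the same base as the WT PU.1 peak. The element that spans the promoter, from -0.35 to 1.19 kb, had a peak in 1 library each of P14, adults and macrophages, with folds of 4.70, 4.60 and 3.53. Within 1 kb of the start, 23.1%, 37.1% and 29.9% of protein-coding genes had a peak in any library of these groups. These 3 peaks did not all share bases: the adult peak ran from -0.35 to 0.57 kb and the macrophage peak from 0.60 to 1.10 kb.

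Between the upstream enhancer and the gene lay a row of further adult elements. The element at -36.24 kb was listed in P14 replicates 1 and 2 (folds 5.83 and 4.34), adult replicates 1 and 2 (5.19 and 5.06) and macrophage replicate 1 (3.64). Those at -39.19, -32.07 and -26.80 kb were each in adult replicates 1 and 2. Of these, the first was also in 1 KO PU.1 list, the second in 1 WT PU.1 list and the third in 1 macrophage list. The element at -16.38 kb was found in no library other than adult replicates 1 and 2, with folds of 7.78 and 9.04, and its peak was the strongest at the locus in replicate 2. Adult replicate 3, of batch 2, listed none of these elements. It had 7.25 M fragments and 22421 listed peaks, and replicate 1, which listed all 5, had 7.51 M and 17048. The part of depth and list length was not tested. As the only adult library of batch 2, replicate 3 cannot be told apart from its batch.

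The element at 31.33 kb was listed in P14 replicate 2, with a fold of 5.78, and in adult replicates 1 and 2, with 5.19 and 7.58. A downstream element near this distance is known in dendritic cells as the site where IRF8 and BATF3 sustain Irf8 expression. No PU.1 library listed it. A WT H3K27ac region of replicate 1 lay within it, at 31.23 to 32.09 kb, and 1 of replicate 2, from 29.91 to 31.09 kb, reached its edge. No KO H3K27ac region overlapped it, although 1 of KO replicate 1 ended close by, at 30.55 kb. The only element held by 2 macrophage libraries and by no microglial IRF8 library was at -20.05 kb, with folds of 4.81 and 5.20 in replicates 1 and 2. It begins at 120716162, close past an element of adult replicate 2 and PU.1 that ends at 120716010, and merging within 500 bp joins them, which ends the macrophage-only call. The remaining macrophage element outside P14 and adult lists, at -1.73 kb, rested on replicate 3.

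Most elements listed in adults lay over H3K4me1 of WT microglia, whereas overlap with H3K27ac of both WT libraries was close to its genome-wide share. Of the 19 elements in any adult list, 11 were in at least 2 adult lists. Of the 19 adult elements, 18 lay over H3K4me1 of both WT libraries, and 11 over H3K27ac of both. Genome-wide, 64.6% and 52.3% of elements in any adult list did. H3K4me1 regions covered 43.5% and 41.9% of the Irf8 window in WT, above the median gene window in both libraries. The part of this wide coverage in the overlap was not tested. H3K27ac of at least 1 WT library covered 17 of the 19, against 66.4% genome-wide, and of at least 1 KO library 9 of the 19, against 45.2%. PU.1 of at least 1 WT library was listed at 6 of the 19 and of at least 1 KO library at 6, against 25.6% and 20.6%.

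PU.1 at the locus was compared between WT and IRF8KO microglia, which asks whether PU.1 stays on its sites without IRF8. The WT lists held 6 and 1 peaks in the window and the KO lists 6 and 5, so the genotypes overlapped. With 2 libraries against 2 no exact test can go below 0.333, and none was made for any genotype comparison. No PU.1 region was shared by both WT libraries. Both KO libraries shared the region at -50.73 to -49.99 kb, which overlapped the peak of WT replicate 1. Genome-wide, 25.1% of WT consensus PU.1 regions, those found in both libraries, had no KO peak, and 16.5% of KO consensus regions had no WT peak.

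H3K27ac covered less of the Irf8 window in KO than in WT microglia. Listed regions covered 10.1% and 10.8% of the window's bases in WT, and 5.46% and 1.86% in KO. Both KO libraries thus stood below both WT libraries, an order found at 49.0% of gene windows, with the opposite order at 5.64%. The median gene window had 3.29% and 3.01% of its bases covered in WT and 2.51% and 0.612% in KO, so the Irf8 window stood above the median in every library. Depth ran with genotype, with 20.2 and 15.4 M fragments in WT and 14.7 and 8.57 M in KO, and its part in the difference was not tested.

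Of 11 WT consensus H3K27ac regions at the locus, 3 had no KO peak, and 34.0% of such regions had none genome-wide. The 3 lay together at the upstream end, at -72.11 to -70.86 kb inside Emc8, and at -55.38 to -54.81 and -54.15 to -52.66 kb between Cox4i1 and the -50.27 kb element. The Emc8 call rests on a narrow gap, as KO replicate 1 listed a region from 120665519, just past the WT end at 120665498. The 8 others overlapped a KO region, among them the longest, from -41.62 to -33.22 kb. Only 3 regions were shared by both KO libraries, at -51.22 to -50.20, -36.74 to -35.15 and -16.71 to -15.61 kb, and each overlapped a WT region. With the shallow KO replicate 2 alone as the KO, 8 of the 11 WT regions had no KO peak, and with KO replicate 1 alone, 3 had none.

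No H3K27ac region over the Irf8 gene was listed in 2 libraries. The 4 libraries listed 2, 4, 2 and 2 regions over the gene, all at different places. Within 1 kb of the start, only WT replicate 1 listed a region, from 0.36 to 0.62 kb with a fold of 3.21. Across 21938 protein-coding genes, 35.1% had H3K27ac within 1 kb of the start in both WT libraries and 48.3% in at least 1. At the upstream elements at -50.27, -36.24 and -16.38 kb, H3K27ac was listed in all 4 libraries.

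**Figure D4:**
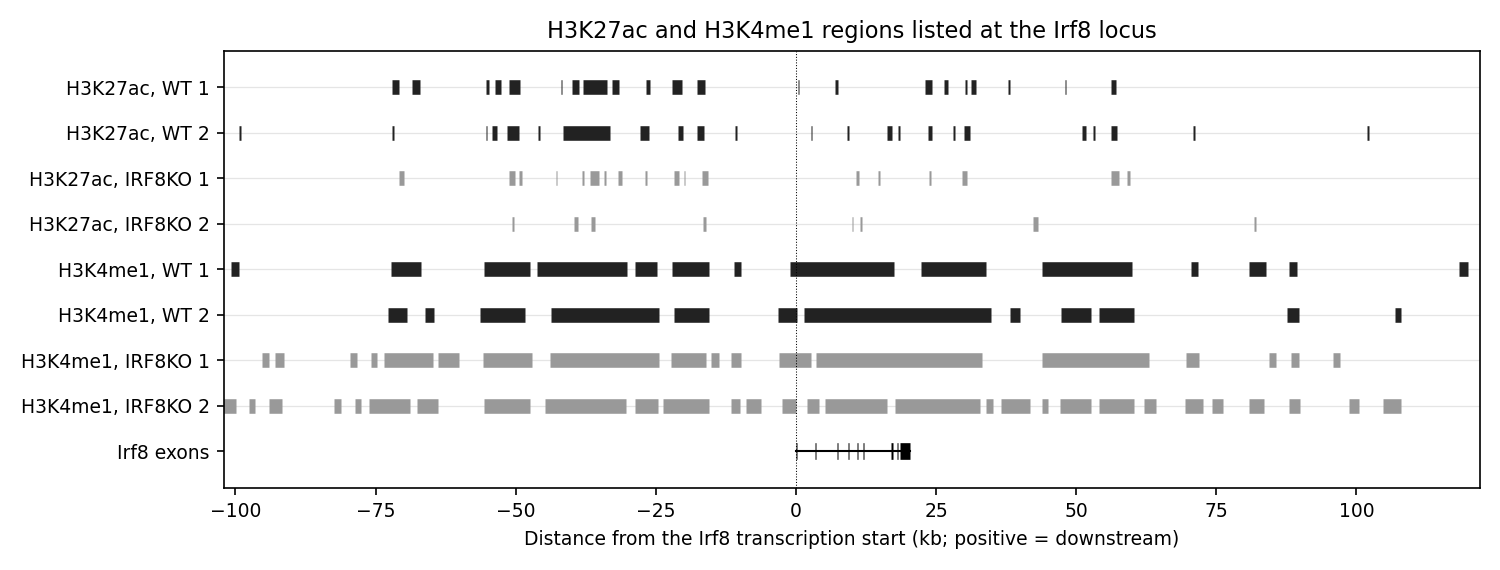
H3K27ac and H3K4me1 regions listed at the Irf8 locus, 1 row per library, against distance from the Irf8 transcription start in kb; bars are listed regions and the lowest row shows the exons. H3K27ac is listed in all 4 libraries near -50, -36 and -16 kb and at no place in the gene in 2 libraries, and H3K4me1 covers most of the gene in every library.

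H3K4me1 regions covered more of the window in KO than in WT. They took up 43.5% and 41.9% of its bases in WT and 52.8% and 56.2% in KO, and both KO libraries stood above both WT libraries, an order found at 55.0% of gene windows, with the opposite order at 3.24%. The median gene window was covered to between 14.2% and 25.9% in the same 4 libraries. Each of the 7 WT consensus regions overlapped a KO region, whereas 13.0% of such regions had no KO peak genome-wide. Of 11 KO consensus regions, 2 had no WT peak, against 23.8% genome-wide, and both lay in the far upstream part, at -95.34 to -91.37 and -79.53 to -77.59 kb. The largest WT consensus region, merged over both libraries, ran from -3.16 to 34.74 kb, across the gene and the 31.33 kb element. None of the 4 libraries covered the whole gene. Of the bases of Irf8, H3K4me1 regions covered 85.8% and 94.0% in WT and 95.8% and 78.8% in KO, so over the gene itself the groups overlapped and KO replicate 2 covered least. WT replicate 1 listed nothing from 17.44 to 22.26 kb, over exons 8 and 9, and WT replicate 2 nothing from 0.28 to 1.5 kb. KO replicate 1 listed nothing from 2.75 to 3.61 kb, and KO replicate 2 nothing from 0.09 to 1.89, 4.18 to 5.24 and 16.2 to 17.66 kb, the last over exon 7. The KO replicate 2 also had the most fragments of the H3K4me1 libraries, 23.9 M against 14.1 to 15.8 M, and the part of depth in the wider coverage was not tested.

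**Figure D5:**
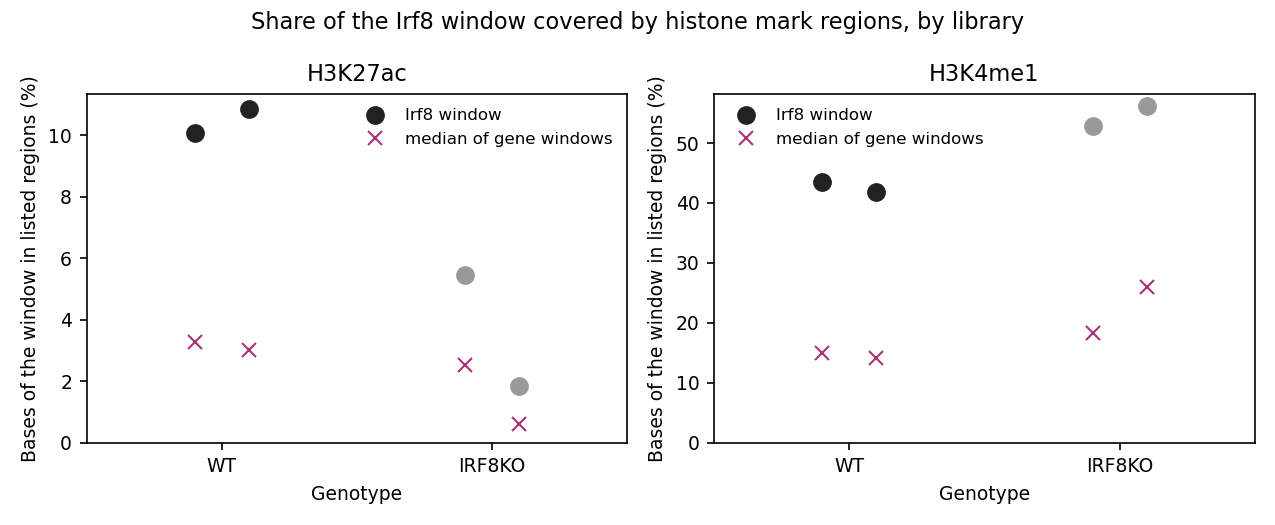
Share of the Irf8 window's bases in listed H3K27ac (left) and H3K4me1 (right) regions for each WT and IRF8KO library (circles), beside the median of protein-coding gene windows in the same library (crosses), in percent. H3K27ac coverage is 10.1% and 10.8% in WT and 5.46% and 1.86% in KO, and H3K4me1 coverage 43.5% and 41.9% in WT and 52.8% and 56.2% in KO.

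Set against the windows of all 21938 protein-coding genes in the same library, the Irf8 window ranked above the middle by its mean percentile in number of peaks in all groups but P9 and WT H3K4me1. Its percentile by number was 82.7 ± 11.3 at P14 (SD, n = 3), 91.7 ± 9.24 in adults (n = 3) and 67.0 ± 4.95 in macrophages (n = 3). The adult values were 98.8, 95.1 and 81.3 and the macrophage values 69.2, 61.4 and 70.5. At P9 it was 40.6 ± 2.58 (n = 4), where it was tied with every gene that had no peak. The order of the group means was adult, P14, macrophage and P9. Adult and P14 values overlapped, as P14 ranged from 71.6 to 94.1, and both groups lay above every macrophage value. With a window around the start alone, P14 replicate 3 stood at 75.8 and macrophage replicate 3 at 76.2, so P14 and macrophages then overlapped. By PU.1 the percentiles were 91.6 and 49.3 in WT and 95.8 and 90.6 in KO. By number of H3K27ac regions they were 89.7 and 93.2 in WT and 82.7 and 87.6 in KO. By number of H3K4me1 regions they were 56.8 and 40.4 in WT and 59.7 and 79.4 in KO. By bases, which fewer and longer regions can fill, H3K4me1 stood at 96.5 and 96.5 in WT and 96.8 and 96.0 in KO.

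The genes whose windows had the most similar percentiles over the 25 libraries were Rasgrp3 (Pearson's r 0.85), Zfp219 (0.83), Gna13 (0.83), Amz2 (0.82) and Fbxw11 (0.81). These coefficients describe 25 points that share libraries and depth, and the genes were picked for them. Gna13 and Amz2 are neighbours whose windows overlap.

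Among 20 transcription factor genes of the myeloid and interferon network, 3 had an IRF8 peak in every P14, adult and macrophage library and in no P9 library, against 12.8% of gene windows, as Irf8 did. They were Batf, which encodes an AP-1 partner of IRF factors, with 6.33 peaks in the P14 mean and 6.67 in the adult mean, Id2, an inhibitor of helix-loop-helix factors, with 2.67 and 4.67, and Klf4, a zinc finger factor of monocytes, with 2.00 and 2.33. An order of every adult above every macrophage library held for 3 of the 20, against 12.7% of gene windows. H3K27ac coverage was lower in both KO than in both WT libraries for 14 of the 20 (49.0% of gene windows), and H3K4me1 coverage higher for 14 (55.0%). Of their 269 WT consensus H3K27ac regions, 66 had no KO peak, against 34.0% genome-wide. For PU.1 it was 12 of 60 regions, against 25.1%, of which 4 lay at Batf3, the gene of the factor that partners IRF8 in dendritic cells, 3 at Etv6, 2 at Myb and 1 each at Cebpa, Batf and Irf2. At the Irf8 locus it was 3 of 11 for H3K27ac, with no WT consensus PU.1 region to lose.

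The 4 motifs searched were found at shares on both sides of the background. At least 1 of them was in the 300 bp window of 10 of the 27 elements, against 31.5% of the 16934 regions found in at least 2 adult IRF8 lists. The composite ETS-IRF motif, GGAA and GAAA with 2 bases between them, was in 0 of the 27 elements and in 10.4% of those adult regions. The interferon-response-like motif, GAAA and GAAA with 2 bases between them, was in 1 (6.11% of adult regions), the PU.1 motif GAGGAAGT in 4 (10.3%) and the AP-1 motif TGANTCA in 5 (9.77%), both strands searched. The 27 elements include some of PU.1, of macrophages or of 1 library alone. Among the 11 elements in at least 2 adult lists, the composite and the interferon-response-like motifs were in 0, and GAGGAAGT and TGANTCA in 1 each (9.09%). The adult regions were merged and centred over the adult lists alone, and the elements over all IRF8 and PU.1 lists. The 2 sets of windows are therefore not fully alike. Over the whole merged elements, a search added after seeing these counts, the composite motif occurred at 2. One match, GGAATGGAAA at -27.15 kb in the -26.80 kb element, was 31 bp from the summit of adult replicate 2. The other, GGAAATGAAA, was 424 bp from the nearest summit. Matches of the interferon-response-like motif in the 31.33 kb element, GAAAAAGAAA at 31.95 kb and GAAATAGAAA at 32.18 kb, were 145 and 90 bp from a summit of adult replicate 2. The AP-1 match TGACTCA at 3.41 kb, in the 3.42 kb element, was 9 bp from a summit of adult replicate 3. The density of the composite motif was 0.0861 per kb over the elements and 0.216 per kb over the adult regions. That of the interferon-response-like motif was 0.129 and 0.199, that of GAGGAAGT 0.172 and 0.204, and that of TGANTCA 0.387 and 0.325. A missing match says only that these letters are not in the sequence searched.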

How the data were processed

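CUT&RUN peak lists of 25 libraries were used. Per the submitters' processing notes reads were trimmed with Trim Galore and aligned with Bowtie2 to mm10. Settings of these steps: not given in the sources used here. Per the file headers, MACS (2.2.7.1 for IRF8 and PU.1, 2.2.6 for histone marks) called peaks per library against an IgG control at q 0.01 (0.05 for PU.1 replicate 2), joining stretches up to 640 bp apart. For H3K4me1 the calls are broad, with a minimum length of 1000 bp and p 0.01. Per the labels' protocols, IRF8 and PU.1 samples were fixed in 1% paraformaldehyde for 10 min. Each deposited entry gives a pileup (fragment coverage signal), a −log10 p-value and a fold enrichment, which is a ratio to the control. The authors' values served to describe, order and select peaks inside their own list. A list gives no read counts, so the depth behind a single peak is unknown.

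Groups and replicate numbers came from sample titles, also for 2 P9 libraries and 1 KO H3K27ac library whose file names carry another number. For the macrophages the source label reads microglia, against the title. Of 7 P9 libraries made, 4 were provided, and of 3 for KO H3K27ac, 2, per the labels. The 4 IgG libraries entered only through the peak calls. Regions repeated for each summit were counted once. An overlap of 1 bp counted, and a consensus region was a merged region found in at least 2 libraries of a group. All peaks lay within the chromosome lengths of GRCm38.p6. Genes came from GENCODE vM21, and the read-through model Gm20388, which spans the whole window, was not used to annotate elements. Counts were compared by exact permutation tests, and the test and overlap code was tested on simulated data. The exact motif letters were searched on both strands (pysam 0.24.0, Python 3.11.15), and the promoter sequence is RefSeq's.

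Named genes were Irf8, the genes of its window, the 5 genes most like it by Pearson's r, and, of 20 listed factors, those with a peak in every later library and none at P9 and those with a PU.1 region lost in KO. Factors that lost a histone mark region alone are counted and not named. Of the cell type marker genes, Cd79a, Mbp and Mog are named and the others only counted. Sequences were chosen in order of the adult within-list percentile, leaving out an element whose window enters a UTR and one whose window holds no summit. The members, lists, motifs and tests were chosen with earlier results of these data known. Alternatives tried were the window size, every listed entry, a −log10 p of at least 10, equal list lengths, rates per 10000 peaks, other overlap rules, other ways of forming elements, a replicate block and leaving out each library.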

Additional observations from a re-analysis of the deposited data

How the results depend on the processing

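For IRF8 peaks at the locus, the differences from P9 kept their direction under window sizes of 50 and 200 kb, every listed entry and rates per 10000 peaks, with the unadjusted p still at 0.0286. With lists cut to equal length both differences from P9 were 0, and adult against P14 became -0.667 peaks. With a −log10 p of at least 10, P14 against P9 was 1.00 (p = 0.143, exact permutation test). Leaving out a library gave 2.50 to 6.50 peaks for P14 against P9 (lowest without P14 replicate 2) and 9.50 to 14.5 for adult against P9. The unadjusted p then lay between 0.0667 and 0.10, as the fewer arrangements fix it. Leaving out a library gave 4.50 to 9.50 for adult against P14 and 6.17 to 11.2 for adult against macrophages.

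Correlations of same-numbered libraries over gene windows were between -0.122 and 0.382. Only for adult against P14 did every library match its own number best, so in the other comparisons the replicate numbers did not pair the libraries throughout. With the replicate block the differences were 5 and 11.7 against P9, 6.67 for adult against P14 and 8.33 for adult against macrophages. Each had p = 0.25 (exact sign flips), the smallest that 3 pairs allow.

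Genotype counts at the locus depended on the rule. Counting regions of any library, those without a peak in the other genotype became 4 (WT) and 7 (KO) for PU.1, 23 and 10 for H3K27ac, and 1 and 11 for H3K4me1. Counting absence from the other genotype's consensus gave 1 for KO PU.1, 8 for WT H3K27ac and 4 for KO H3K4me1. Overlap of at least 50% of the shorter region gave 1 for KO H3K27ac and 1 for KO H3K4me1. A −log10 p of at least 10 gave 1 of 3 for WT H3K27ac, against 3 of 11 as reported, and left 0 KO H3K4me1 consensus regions, so its count of 0 was fixed. Equal list lengths gave 1 and 1, and a 50 kb window 0 and 0. Leaving out each library, which replaces a consensus by a lone library where it removes one of 2, gave 0 to 4 (WT) and 0 to 4 (KO) for PU.1, 3 to 15 and 0 to 6 for H3K27ac, and 0 to 1 and 2 to 8 for H3K4me1.

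There were 14 elements at a −log10 p of at least 10 in place of 27, 26 when merged within 500 bp, 37 when summits were grouped within 300 bp, and 26 to 27 without each library in turn. The macrophage percentile was 72.6 for a window around the start alone and 61.0 by bases. Searching whole elements gave 2 elements with the composite motif and 2 with the interferon-response-like motif. The causes of these changes were not tested.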

Other observations

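The upstream end of the window belongs to Emc8, which encodes a subunit of the membrane protein complex of the endoplasmic reticulum, and Cox4i1, which encodes a subunit of cytochrome c oxidase. Their starts lie at -67.78 and -68.14 kb, and H3K27ac over both starts, from -68.46 to -67.15 kb, was listed in WT replicate 1 only. The element at -71.55 kb in an Emc8 intron held the strongest peak of the locus in macrophage replicate 3 (rank 1117, fold 6.05), and adult replicate 2 also listed a peak there (rank 21472, fold 4.15), ranks and folds being those within each list. It lies in the H3K27ac region of both WT libraries that had no KO peak.

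Of 148 IRF8, PU.1 and H3K27ac peaks at the locus, 11 began at a base where a peak of another library also began, at 4 bases in all. At -50.73 kb, in the -50.27 kb element, these were 3 IRF8 peaks (adult replicate 3 and macrophage replicates 1 and 2) and 1 PU.1 peak (KO replicate 1). P14 replicates 1 and 2 shared a start at -36.42 kb, and P14 replicates 1 and 3 at 56.58 kb. The base 120738978, in the 3.42 kb element, was shared by 3 targets: IRF8 in adult replicate 3, PU.1 in WT replicate 1 and H3K27ac in WT replicate 2. The IRF8 and PU.1 peaks ended 8 bp apart, at 120739935 and 120739927. Genome-wide, 71 of 22421 peaks of that IRF8 list (0.317%) shared a start with a peak of that PU.1 list, and 33 (0.147%) with that H3K27ac list. The genome-wide share was computed for these pairs alone, picked after their values were seen, and what sets the shared edges was not tested.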
